A study of Mus musculus with 16 samples.

Results

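The collagen genes were examined in the cerebellum (cb) and in the brain without its cerebellum (Br, called the rest of the brain) of mice with and without a mutation in a brain isoform of Ppargc1a, the gene of the transcriptional coactivator PGC1α. Members were all probe sets (groups of probes designed against the same transcript) whose only gene symbol in the platform annotation has the form Col, number, a, number. This gave 82 of 45101 probe sets, from 42 of 18194 named genes. Of these genes, 15 had 1 probe set and 27 had more.

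The 16 arrays formed 8 groups of 2 replicates, female and male, WT and KO, cerebellum and rest of brain. All animals were C57BL/6J. KO animals (SINE KO) carried 4 deleted bases just past the putative start codon, which lies in a SINE repeat, of a fusion isoform of Ppargc1a that starts at a far upstream repeat locus, on both chromosomes, made with CRISPR/Cas9 in 1 founder line, and WT animals were their age-matched littermates. Each brain was divided into the 2 parts after remnants of the brain stem were removed, the 2 samples of a group were independent specimens, and samples were matched by litter where possible. Arrays of the 2 brain parts may share an animal, and the labels do not say which do. The age of the animals on the arrays was not given in the sources used here. The deletion leaves the transcript in place, so the arrays give no check of the genotype labels, and 5 of 5 Ppargc1a probe sets were detected on all 16 arrays.

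The deposited values take only 5 distinct numbers, and they were read here as detection calls per probe set and array: detected, marginal or not detected. A call says whether a signal stood out from background, not how strong it was, so a gene that is strong in both brain parts and stronger in 1 of them shows no difference. In tissue pieces such as these, fewer cells of a type and less RNA per cell cannot be told apart. The arrays detected 25517 to 28155 probe sets. Eif2s3y, a gene of the Y chromosome, was detected by each of its 2 probe sets on 8 of 8 arrays labelled male and 0 of 8 labelled female. Granule neuron markers of the cerebellum were detected at 19 to 21 of 22 probe sets on 7 cerebellum arrays, at 15 on WT female cerebellum replicate 2, and at 10 to 16 on rest-of-brain arrays. Purkinje cell markers were detected at 23 to 24 of 25 probe sets on those 7 arrays and at 19 on that replicate. On rest-of-brain arrays they were detected at 18 to 23, so the brain parts overlapped on this list. WT female cerebellum replicate 2 also detected 20 of 26 striatal probe sets, against 14 to 19 on the other cerebellum arrays. The rest-of-brain arrays detected 22 to 24 of them, so that cerebellum array lies nearer to the rest of the brain than its group does. Results are given with it and, where it changes a call, without it.

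Collagens are proteins of the extracellular matrix in which 3 chains wind into a triple helix. Some form fibrils, some form the sheet-like network of basement membranes, and others bind to fibrils, form beaded filaments or span the cell membrane. In the brain, collagens are known mainly from the meninges, from the walls of blood vessels and from the choroid plexus, while a few, such as those of the transmembrane class, are also made by neurons.

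Of the 82 collagen probe sets, 25 (30.5%) were detected on all 16 arrays, 27 (32.9%) on some and 30 (36.6%) on none. Over all probe sets of the array these shares were 48%, 25% and 27%. Per array, 43.9% to 54.9% of the collagen probe sets were detected, against 56.6% to 62.4% of all probe sets. Taken by gene, with a gene counted as detected where any of its probe sets was, 23 of 42 collagen genes (54.8%) were detected on all 16 arrays and 6 (14.3%) on none, against 59.6% and 21.1% of all named genes. No test was made of these shares, since probe sets are not replicates.

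Probe sets of the same gene often differed. In 9 of the 27 genes with more than 1 probe set (33.3%), one was detected on all 16 arrays and another on none, which was so in 24% of all such genes on the array. Col1a1, the main chain of type I collagen, was detected on all 16 arrays by 1455494_at and on none by 1423669_at. Col4a5 was the only such gene whose probe sets (1425475_at and 1425476_at) were all detected on all 16 arrays. A probe set without a call was therefore not read as a gene without RNA.

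**Figure D1:**
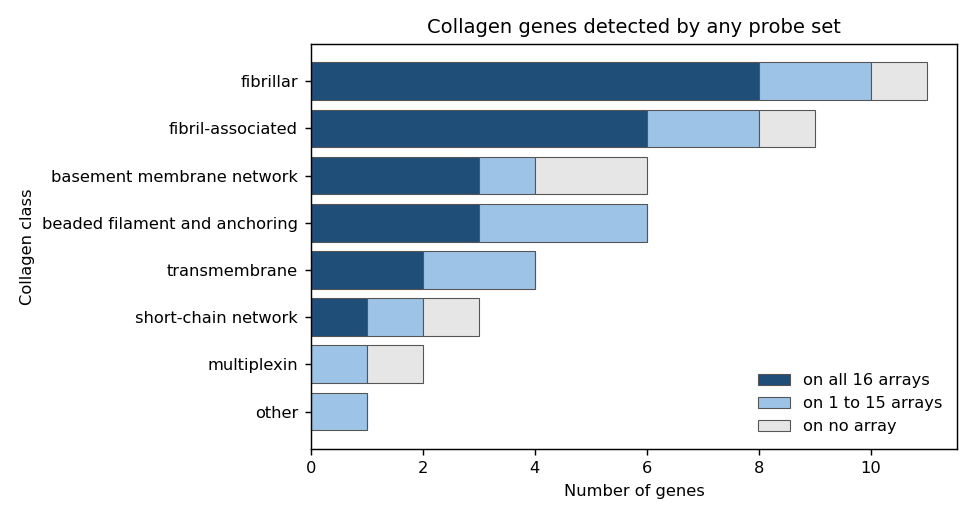
Number of collagen genes (horizontal axis) in each class (vertical axis), split by whether any probe set was detected on all 16 arrays (dark), on 1 to 15 arrays (light) or on none (grey). Fibrillar and fibril-associated genes hold 14 of the 23 genes detected on all 16 arrays.

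Of the 11 genes of the fibrillar class, 8 were detected on all 16 arrays: Col1a1 and Col1a2 of type I collagen, Col3a1 of type III, Col5a1, Col5a2 and Col5a3 of type V, which sets the width of fibrils, and Col11a1 and Col11a2 of type XI. Col24a1 was detected on 11 arrays and Col27a1 on 12. Col2a1, the main collagen of cartilage, was detected on none.

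Col4a1 and Col4a2, whose products form the type IV collagen of nearly all basement membranes, were detected on all 16 arrays. They lie head to head on chromosome 8, with RefSeq start sites 21 bases apart (GRCm38.p6). Of the chains α3, α4 and α5, which form the trimer known from the kidney glomerulus, Col4a3 was detected on no array by 2 probe sets, Col4a4 on 1 array by 1 of 3 probe sets, and Col4a5 on all 16. Col4a6, the partner of Col4a5 in another trimer, was detected on no array by 2 probe sets, although the pair are neighbours on the X chromosome.

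Type VI collagen forms beaded filaments from 1 α1 chain, 1 α2 chain and 1 chain of another kind. Col6a1 (1448590_at) and Col6a3 (1424131_at) were detected on all 16 arrays, while Col6a2 was detected on 9, Col6a5 on 7 and Col6a4 on 4. Col7a1, the collagen of anchoring fibrils in skin, was detected on all 16 arrays. In the short-chain class, Col8a2 was detected on all 16, Col8a1 on 13 and Col10a1, the collagen of growth plate cartilage, on none.

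Of the 9 fibril-associated genes, Col9a1, Col9a3, Col12a1, Col14a1, Col16a1 and Col19a1 were detected on all 16 arrays, Col20a1 on 15, Col9a2 on 2 and Col22a1 on none. The α1, α2 and α3 chains of type IX collagen make 1 trimer, and Col9a2 (1450673_at) was detected only on WT female cerebellum replicate 2 and WT male cerebellum replicate 2. Of the transmembrane genes, Col23a1 and Col25a1, the precursor of a component of amyloid plaques, were detected on all 16 arrays, Col13a1 on 10 and Col17a1, a collagen of hemidesmosomes, on 4. Of the multiplexins, basement membrane proteins whose C-terminal fragments are known as inhibitors of vessel growth, Col18a1 was detected on 9 arrays and Col15a1 on none. Col26a1, which is in no class above, was detected on 4 arrays.

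The comparison of the cerebellum with the rest of the brain asked which collagens were called in one and not in the other. The mean number of collagen probe sets detected was 39.2 ± 1.98 (SD, n = 8 arrays) in the cerebellum and 40.1 ± 2.59 (SD, n = 8) in the rest of the brain, and the median was 39.5 in each. The ranges overlapped, at 36 to 42 and 38 to 45. Fully separate calls were found for 1 Col18a1 and 1 Col6a2 probe set.

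**Figure D2:**
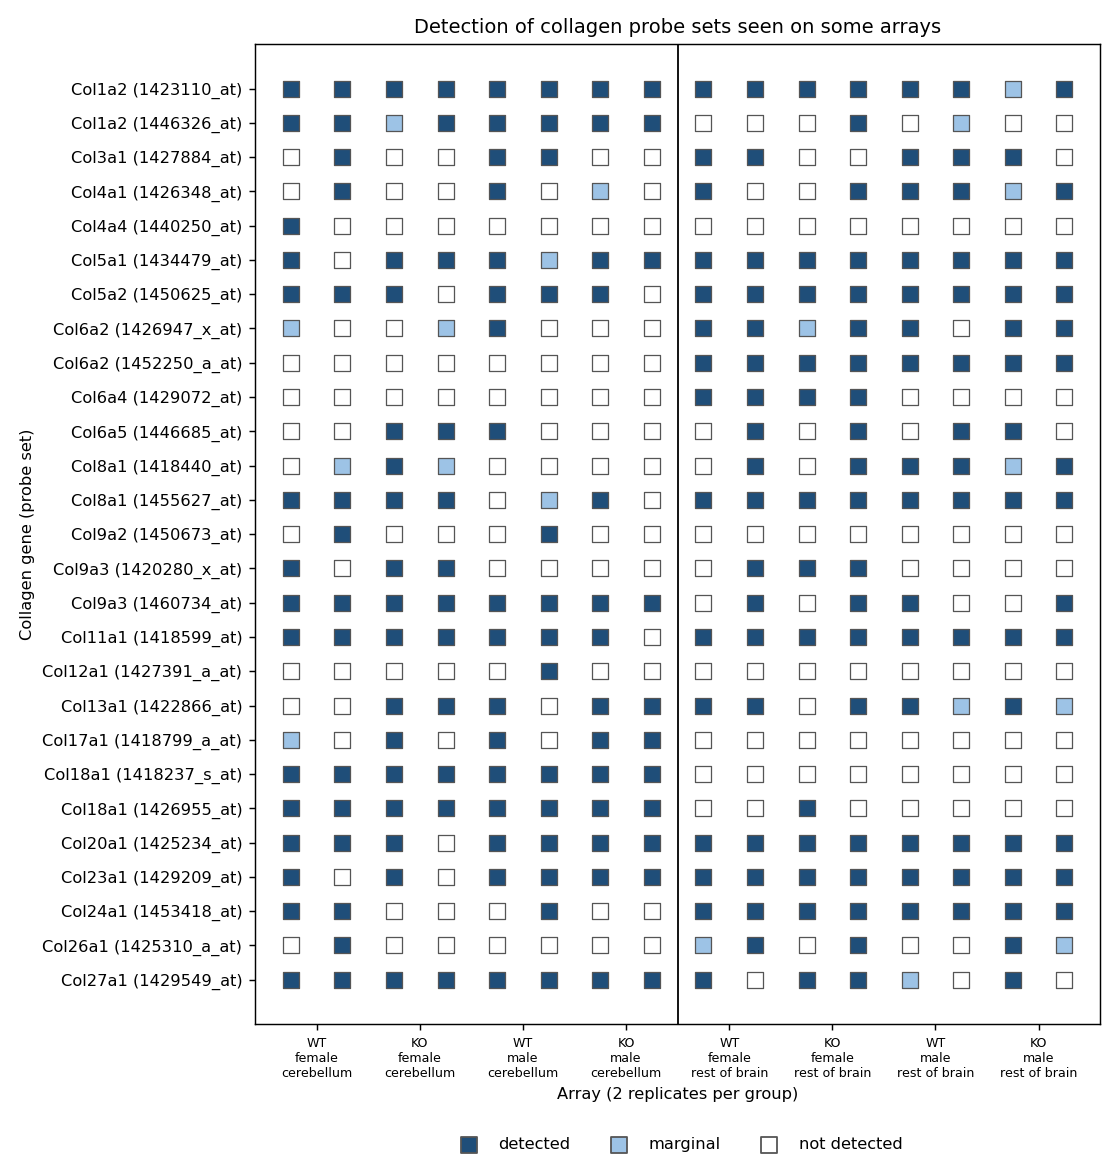
Calls of the 27 collagen probe sets detected on 1 to 15 arrays (vertical axis) on each of the 16 arrays (horizontal axis, 2 replicates per group), with dark squares detected, light squares marginal and open squares not detected. Col18a1 is filled on the cerebellum side and Col6a2 (1452250_a_at) on the rest-of-brain side of the vertical line.

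Col18a1, a heparan sulfate bearing collagen of basement membranes and the source of endostatin, was called in the cerebellum. Probe set 1418237_s_at was detected on all 4 WT and all 4 KO cerebellum arrays and on 0 of 8 rest-of-brain arrays. Probe set 1426955_at was detected on the same 8 cerebellum arrays and on 1 rest-of-brain array, KO female replicate 1. The brain parts thus did not overlap for one probe set and overlapped by 1 array for the other.

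Col6a2, the α2 chain of type VI collagen, was called in the opposite brain part. Probe set 1452250_a_at was detected on 8 of 8 rest-of-brain arrays, 4 WT and 4 KO, and on 0 of 8 cerebellum arrays. Probe set 1426947_x_at was detected on 6 rest-of-brain arrays and on 1 cerebellum array, WT male replicate 1. It was marginal on cerebellum arrays WT female replicate 1 and KO female replicate 2, and on rest-of-brain array KO female replicate 1. Col6a1, which encodes the chain that pairs with it, was detected on 8 of 8 arrays in each brain part.

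These calls were tested with Fisher's exact test, two-sided, on 8 against 8 arrays, with Benjamini-Hochberg adjustment. For Col18a1 1418237_s_at and Col6a2 1452250_a_at, exact p was 0.000155, the smallest the design allows. Adjusted over all 45101 probe sets it was 0.0501, just above the threshold of 0.05, and 0 members were called, as were 0% of all probe sets. In a run over the 3873 probe sets detected on 5 to 11 arrays, the ones that can reach an exact p under 0.05, the adjusted exact p was 0.0043 for each and 0.0138 for Col18a1 1426955_at. In that run 3 of 12 collagen probe sets (25%) passed, against 17.1% of all those tested. Higher in the cerebellum were 2 (16.7%, against 5.55% of all), and higher in the rest of the brain was 1 (8.33%, against 11.5%). The 2 are both of Col18a1, so they are not separate observations, and 12 are too few to compare with these shares. Members detected on every array of one brain part and none of the other numbered 1 in each direction, where 0.0554% of all probe sets were so for the cerebellum and 0.255% for the rest of the brain.

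Within each stratum of 4 against 4 arrays, exact p cannot go below 0.0286. Col18a1 1418237_s_at and Col6a2 1452250_a_at were at that limit among WT, KO, female and male arrays alike. Their calls split fully over all arrays, so this outcome was fixed in advance and is no separate evidence. Without WT female cerebellum replicate 2, the adjusted exact p of each was 0.00288 in the limited run. Leaving out any array left the separation of these 2 probe sets complete, as it must where no call goes against the split.

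The genes lie near each other on mouse chromosome 10 (GRCm38.p6), all on the minus strand. Col6a2 is at 76595756 to 76623630, Col6a1 at 76708792 to 76726044 and Col18a1 at 77052178 to 77166530. From Col6a2 to Col18a1 the annotation lists 12 genes, 5 of which had a probe set. The genes between that had a probe set showed no switch. Col6a1, Pcbp3 (2 probe sets) and Slc19a1 (2 of 3 probe sets) were detected on all 16 arrays, and 1 Slc19a1 probe set on none. So the gap of 85162 bases from the end of Col6a2 to the start coordinate of Col6a1, and that of 326134 bases on to Col18a1, separate a probe set called in the rest of the brain, one called throughout and one called in the cerebellum.

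The 250 bases before the RefSeq start sites of the 3 collagen genes are shown because their calls differ while they lie in the same stretch of chromosome 10. Col18a1 has 2 start sites in the table, 52825 bases apart, and the probe sets do not tell which was used. Capitals mark matches, on either strand, to 3 promoter motifs. These are the GC box searched as GGGCGG, the CCAAT box under its own letters, and the TATA box searched as TATAAA. The letters of these motifs do not contain each other, and neighbouring GC boxes may overlap.
Col18a1, outer start, chr10:77166531-77166780, minus strand: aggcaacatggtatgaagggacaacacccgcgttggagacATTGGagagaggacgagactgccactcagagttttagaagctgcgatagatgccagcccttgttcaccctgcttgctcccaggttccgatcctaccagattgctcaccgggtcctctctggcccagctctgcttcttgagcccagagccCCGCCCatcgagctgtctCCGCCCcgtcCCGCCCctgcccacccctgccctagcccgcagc
Col18a1, inner start, chr10:77113706-77113955, minus strand: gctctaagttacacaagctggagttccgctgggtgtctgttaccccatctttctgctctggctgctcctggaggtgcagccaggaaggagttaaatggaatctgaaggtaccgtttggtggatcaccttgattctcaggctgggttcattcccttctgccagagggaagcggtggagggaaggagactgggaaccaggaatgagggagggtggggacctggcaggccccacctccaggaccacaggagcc
Col6a2, outer start, chr10:76623631-76623880, minus strand: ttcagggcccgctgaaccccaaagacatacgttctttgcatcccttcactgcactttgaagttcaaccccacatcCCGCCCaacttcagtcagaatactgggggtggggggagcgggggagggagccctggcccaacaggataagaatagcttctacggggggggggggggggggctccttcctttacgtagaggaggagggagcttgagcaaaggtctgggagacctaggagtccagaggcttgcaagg
Col6a1, chr10:76726045-76726294, minus strand: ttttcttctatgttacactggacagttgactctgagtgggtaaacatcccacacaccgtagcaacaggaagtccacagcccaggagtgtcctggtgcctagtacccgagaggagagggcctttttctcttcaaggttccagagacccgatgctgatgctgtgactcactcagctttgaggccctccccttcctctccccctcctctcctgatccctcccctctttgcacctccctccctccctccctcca

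The window at the outer Col18a1 start held 3 GC boxes and 1 CCAAT box, and the outer Col6a2 window held 1 GC box. Col6a2 also has an inner start 226 bases downstream, whose window overlaps the transcript of the outer start and is not printed, and it held 3 GC boxes, as many as the outer Col18a1 window. The inner Col18a1 window and the Col6a1 window held no match to any of the 3 motifs. Of the 32851 windows of this length in the table, 32.7% held the GC box, 33.8% the CCAAT box and 12.4% the TATA box. GC content was 62% at the outer and 57.6% at the inner Col18a1 start, 59.2% at the outer and 64.4% at the inner Col6a2 start, and 56% at Col6a1. A match describes the letters only.

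Col24a1, a fibrillar collagen known from developing bone and cortex, was detected on 8 of 8 rest-of-brain arrays. In the cerebellum it was detected on 3, WT female replicates 1 and 2 and WT male replicate 2, and on no KO array. The exact p was 0.0256, adjusted to 0.0944 in the limited run and to 1 over all probe sets. It passed the limited run when any of those 3 arrays was left out. The adjusted exact p was 0.0443 without WT female replicate 1, 0.0371 without WT female replicate 2 and 0.0438 without WT male replicate 2. Those are the cerebellum arrays whose calls went against the split, so leaving any of them out can only widen it.

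Col1a2 gave 3 probe sets with 3 patterns. Probe set 1450857_a_at was detected on all 16 arrays and 1423110_at on 15, while 1446326_at was detected on 7 cerebellum arrays and 1 rest-of-brain array, KO female replicate 2. For the last, exact p was 0.0101, with an adjusted value of 0.0507 in the limited run and 0.59 over all probe sets. The gene as a whole was detected in both brain parts, so the difference lies in 1 probe set. Without WT female cerebellum replicate 2, its adjusted exact p in the limited run was 0.0488. It was 0.0156 without KO female cerebellum replicate 1, where its call was marginal, and 0.0161 without KO female rest-of-brain replicate 2. These last arrays are those whose calls went against the split, so leaving either out can only widen it.

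Col6a2 1426947_x_at had an exact p of 0.0406, adjusted to 0.126 in the limited run. The adjusted exact p there was 0.044 without WT male cerebellum replicate 1, the only cerebellum array that detected it. Leaving that array out can only widen the split. With this probe set, 6 collagen probe sets (7.32%) had an unadjusted exact p under 0.05, against 2.76% of all probe sets. They come from 4 genes, so they are not 6 separate observations. Col17a1 (1418799_a_at) was detected on 4 cerebellum arrays, 3 of them KO, and on 0 rest-of-brain arrays. Col27a1 (1429549_at) and Col9a3 (1460734_at) were each detected on 8 cerebellum and 4 rest-of-brain arrays. These splits have an exact p of 0.0769 and could not pass. Col8a1 was detected by 1455627_at on 5 cerebellum and 8 rest-of-brain arrays and by 1418440_at on 1 and 5. Col13a1 was detected on 5 arrays in each brain part.

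**Figure D3:**
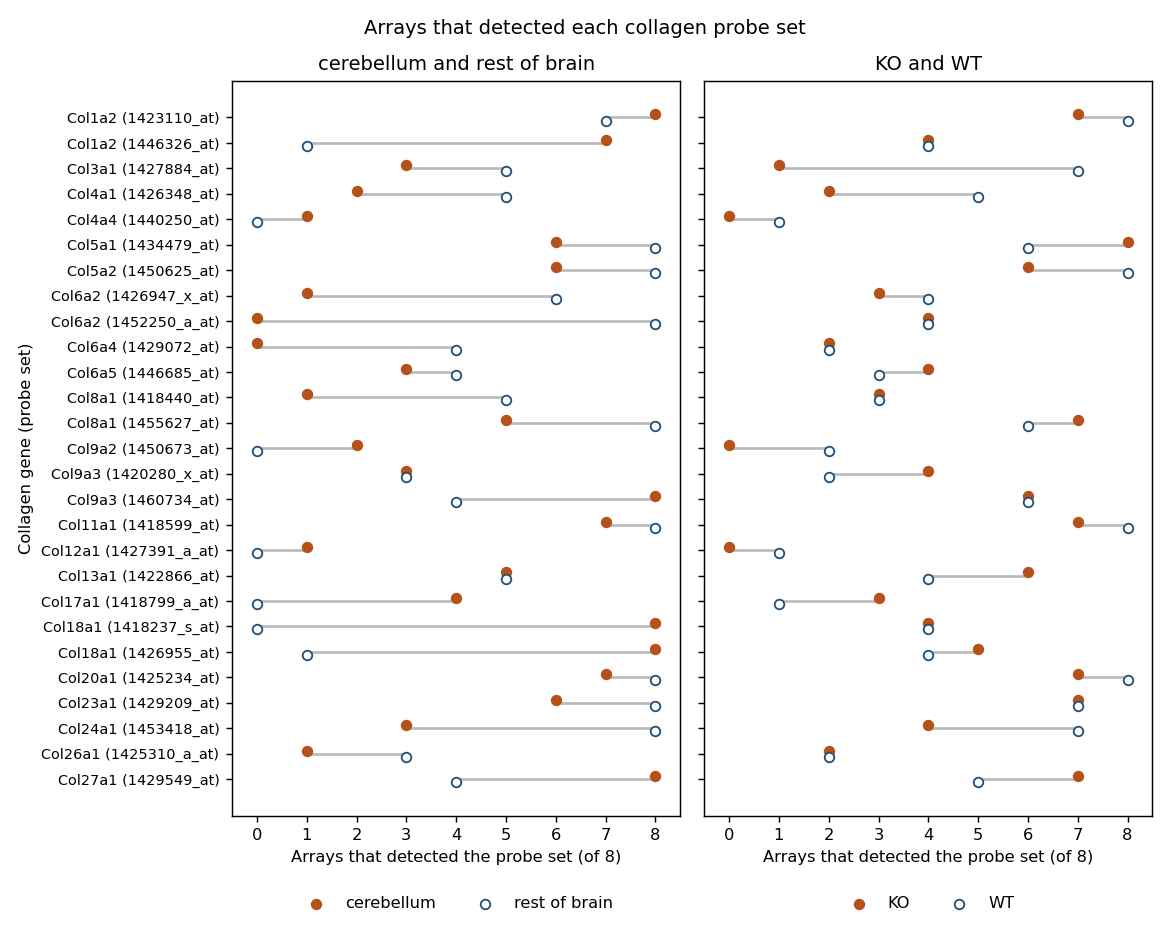
Number of arrays, of 8, that detected each collagen probe set (horizontal axes) for the 27 detected on 1 to 15 arrays (vertical axis), cerebellum against rest of brain on the left and KO against WT on the right. On the left, Col18a1 1418237_s_at and Col6a2 1452250_a_at span 0 to 8, while on the right the widest pair is Col3a1 (1427884_at), at 1 KO and 7 WT arrays.

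The comparison of KO with WT asked whether loss of the isoform went with other collagen calls. KO arrays detected 36 to 45 collagen probe sets (39.1 ± 2.8, SD, n = 8) and WT arrays 38 to 43 (40.2 ± 1.58, SD, n = 8). With 8 against 8 arrays, 0 members passed Fisher's exact test after adjustment, over all probe sets or in the limited run, and neither did any other probe set (0%). These tests, and those between the sexes, count the brain parts as separate samples, and their p-values are too small where the parts share animals. Within each brain part, at 4 KO against 4 WT arrays, only a full split gives an exact p under 0.05. Of the 27 members detected on some arrays, 0 split so. The share over all probe sets is not given here, so this count is a description only. With 8 against 8 arrays, 1 member (1.22%) had an unadjusted exact p under 0.05, against 0.0843% of all probe sets.

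That member was Col3a1, the chain of type III collagen, which is found with type I in vessel walls and meninges. Probe set 1427884_at was detected on 7 of 8 WT arrays, all but WT female cerebellum replicate 1. Among KO arrays it was detected on 1 of 8, KO male rest-of-brain replicate 1, so the genotypes overlapped by 1 array on each side. The exact p was 0.0101 and its adjusted value 1 in both runs. The other Col3a1 probe set, 1427883_a_at, was detected on all 16 arrays, so Col3a1 was called in every KO and WT array. The difference lies in 1 probe set. Markers of meningeal and perivascular fibroblasts, cells that make type I and III collagen, were detected at 15 to 18 of 30 probe sets on KO arrays (median 17) and at 15 to 20 on WT arrays (median 17), with 9 of the 30 on no array. Their part in the Col3a1 calls was not tested.

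Within a sex and brain part there are 2 KO and 2 WT arrays, and exact p cannot go below 0.333, so switches there are described only. In the female cerebellum, 2 members were called on each KO array and on no WT array (2.44%, against 0.743% of all probe sets). They were Col13a1 (1422866_at), a transmembrane collagen of the neuromuscular junction, and Col6a5 (1446685_at). The reverse held for Col24a1 in the female cerebellum, which was called on each WT array and on no KO array (0.71% of all probe sets). Col3a1 1427884_at was called on 2 WT and 0 KO arrays in the male cerebellum (0.792% of all) and in the female rest of brain (0.49% of all). Outside the female cerebellum, Col13a1 and Col6a5 did not keep their pattern. Col13a1 was detected on both KO and 1 WT array in the male cerebellum, and Col6a5 on 0 KO and 1 WT array there. Whether the genotypes differed more in one sex or brain part than another was not tested.

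Between females and males, 0 members passed either adjusted run, and 0% of all probe sets did. An unadjusted exact p under 0.05 was found for 1 member, against 0.286% of all probe sets. Col9a3 1420280_x_at was detected on 6 of 8 female arrays, 3 in each brain part, and on 0 of 8 male arrays (exact p = 0.00699, adjusted 1 in both runs). The other Col9a3 probe sets showed no such split, with 1460693_a_at on all 16 arrays and 1460734_at on 6 arrays of each sex.

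Col6a4, named here after its calls were seen, was detected by 1429072_at on all 4 female rest-of-brain arrays, 2 WT and 2 KO. It was detected on 0 of 4 male rest-of-brain arrays and 0 of 8 cerebellum arrays. Of all probe sets, 0.082% were detected on all female and no male arrays of the rest of the brain. Within that brain part exact p was 0.0286, the smallest that 4 against 4 arrays allow, and it was the only one under 0.05 among the 27 members compared there. Choroid plexus probe sets were detected at 17 to 18 of 23 on the female and 18 to 19 on the male rest-of-brain arrays, and fibroblast probe sets at 15 to 20 and 15 to 18 of 30. Their part in the Col6a4 calls was not tested. The other Col6a4 probe set, 1445470_at, was detected on no array.

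**Figure D4:**
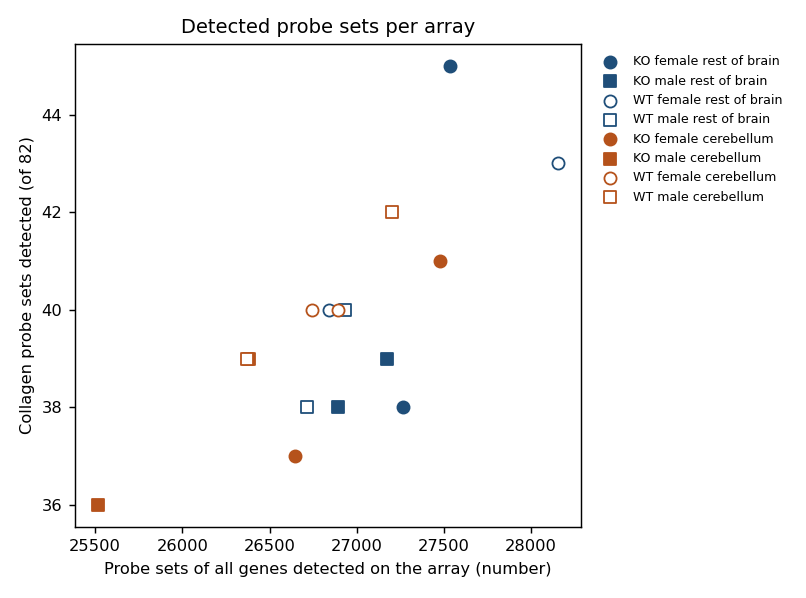
Collagen probe sets detected on each array, of 82 (vertical axis), against all probe sets detected on that array (horizontal axis), with 1 point per array, colour for brain part, filled symbols for KO and open symbols for WT. The points run from 36 collagen probe sets on the array with 25517 detected probe sets to 45 on KO female rest-of-brain replicate 2.

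Other genes of the collagen pathway, from fixed lists, gave 0 calls between the brain parts over all probe sets and 1 in the limited run. That is 5.26% of the 19 probe sets that could be tested, against 17.1% of all those tested in that run. The single lists have too few testable probe sets to be compared with that share. Of the probe sets for collagen modification, folding and export, 27 of 39 were detected on all 16 arrays, and 0 of the 4 that could be tested passed the limited run. Examples are Plod2, a lysyl hydroxylase, on 7 cerebellum and 3 rest-of-brain arrays by 1416687_at (exact p = 0.119), and P4ha3, a prolyl hydroxylase subunit, on 1 and 5. Of those for processing and cross-linking, 10 of 27 were on all 16 arrays and 0 of 1 passed. Of those for breakdown, 17 of 36 were on all 16 and 0 of 3 passed. Mmp16, a membrane metalloproteinase, had the smallest exact p there, at 3 cerebellum and 8 rest-of-brain arrays by 1440161_at (exact p = 0.0256, adjusted 0.0944 in the limited run). Its probe set 1422626_at was detected on 8 of 8 arrays in each brain part.

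Among collagen receptors, 19 of 34 probe sets were on all 16 arrays and 1 of 4 passed the limited run. Adgrg6, an adhesion G protein-coupled receptor known to bind type IV collagen, was detected on 0 cerebellum and 6 rest-of-brain arrays by 1437408_at (exact p = 0.00699, adjusted 0.0409 in the limited run and 0.476 over all probe sets). Its other probe set, 1437409_s_at, was detected on all 16 arrays. Of the basement membrane partners, such as laminins and nidogens, 11 of 32 were on all 16 arrays and 0 of 4 passed. Of the fibril-binding proteoglycans and glycoproteins, 19 of 40 were on all 16 arrays and 0 of 3 passed, with Omd on 1 and 6 arrays and Fbln2 on 2 and 7. Between KO and WT, 0 probe sets of these lists had an exact p under 0.05.

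**Figure D5:**
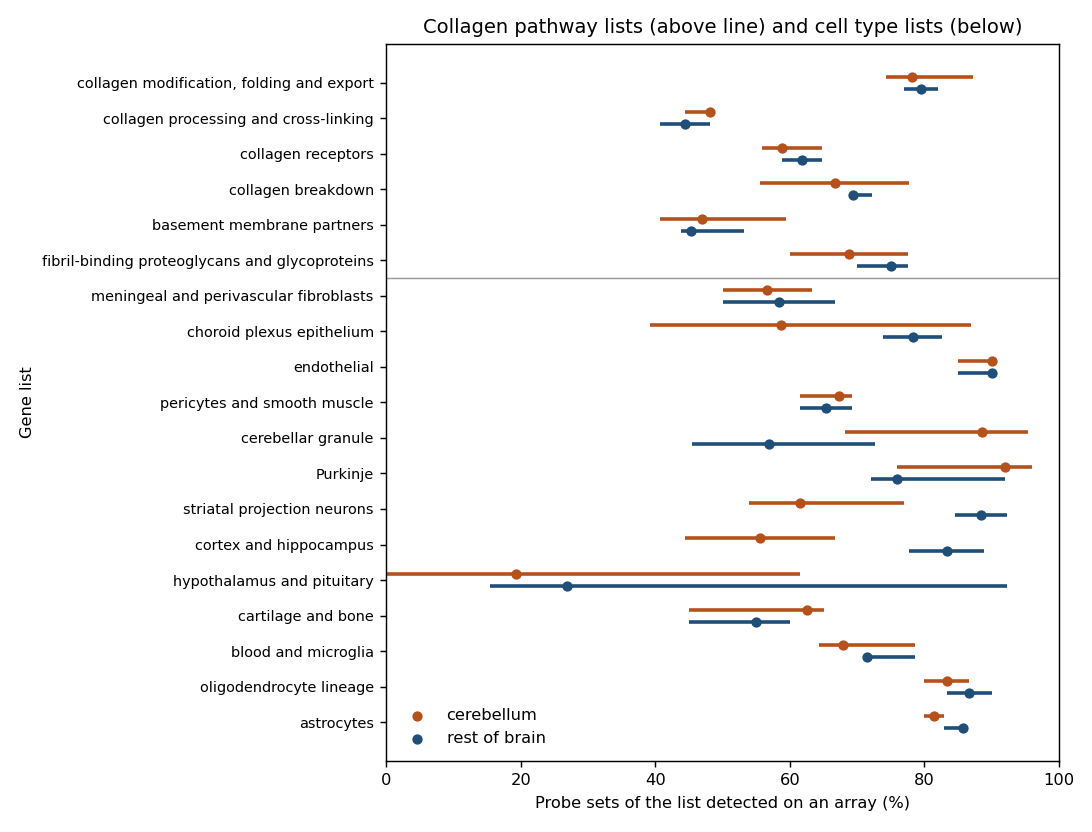
Percent of the probe sets in a list that an array detected (horizontal axis), for the collagen pathway lists above the line and the cell type lists below it (vertical axis), with points for the median and lines from the lowest to the highest of 8 arrays. Pathway lists overlap between the brain parts, while the ranges of the striatal list and of the cortex and hippocampus list do not.

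Markers of the cells known to make collagen in the brain were set beside the Col18a1 and Col6a2 calls. Fibroblast probe sets were detected at 15 to 19 of 30 in the cerebellum and 15 to 20 in the rest of the brain, endothelial ones at 17 to 18 of 20 in each, and those of pericytes and smooth muscle at 16 to 18 of 26 in each. In the limited run 0 of 2 testable fibroblast probe sets and 0 of 1 of pericytes and smooth muscle passed, and no endothelial probe set could be tested. Choroid plexus probe sets ranged from 9 to 20 of 23 in the cerebellum (median 13.5) and from 17 to 19 in the rest of the brain (median 18). The lowest was WT female cerebellum replicate 2. Of this list 6 probe sets were on all 16 arrays, 2 could be tested and 0 passed the limited run. The testable ones, of Aqp1 and Kcne2, were each on 3 cerebellum and 8 rest-of-brain arrays (adjusted exact p = 0.0944). Those of Slc4a5 (2 and 0), Otx2 (8 and 7) and Steap1 1424938_at (2 and 1) went the other way. Some neuron marker probe sets split fully. Those of Barhl1 and Zic2 of granule neurons were on 8 cerebellum and 0 rest-of-brain arrays, and those of Emx1, Fezf2 and Tbr1 of the cortex on 0 and 8. Barhl1 1418811_at and Emx1 1444216_at were on no array, and Prox1 1421336_at of the cortex list was on 7 and 3. In the limited run 3 of 6 testable granule neuron probe sets passed. Of the cortex and hippocampus list 6 of 8 did, against 17.1% of all those tested. On all 16 arrays were 10 of 22 and 6 of 18 probe sets of these lists. The part of these cells in the collagen calls was not tested.

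Genes of cartilage and bone were also compared. Probe sets of Ucma (1428993_at, 7 cerebellum and 0 rest-of-brain arrays) and Comp (1419527_at, 6 and 0) were higher in the cerebellum and 1 of Hapln1 (1421633_a_at, 0 and 7) in the rest of the brain in the limited run, with adjusted exact p of 0.0138, 0.0409 and 0.0138. The other Ucma probe set was detected on 7 and 3 arrays, and those of Hapln1 on 8 and 8 (1438020_at) or 5 and 8, so Hapln1 was detected on every array. Of that list, 6 probe sets could be tested, and 2 passed as higher in the cerebellum and 1 as higher in the rest of the brain. Of all probe sets tested, 5.55% and 11.5% did, and 6 are too few to compare with these shares. On cerebellum arrays 9 to 13 of the list's 20 probe sets were detected, and on rest-of-brain arrays 9 to 12. The cartilage collagens Col2a1 and Col10a1 were called on none of the 16 arrays.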

How the data were processed

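Gene expression was measured on Affymetrix arrays in 16 samples, 2 for each of 8 groups of genotype, brain part and sex, as the labels give them. The authors' methods and the submitters' processing notes name MAS5, while their results name RMA, and the methods name a human array although the probe sets carry the names of a mouse design. The deposited values are in no stated unit and take 5 distinct numbers, which the authors do not explain. As 4-byte numbers, their first byte is 2, 1, 0, -1 or -2. Values above 5e-38 (level 2) were read as detected, level 1 (1.51% of values) as marginal and the others as not detected; the meaning of the levels below 0 is not settled, and they occur on 5 member probe sets, none of which was detected on any array.

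From these calls were computed the number of arrays that detected each probe set, Fisher's exact test (two-sided) on 8 against 8 arrays, and Benjamini-Hochberg adjustment over all 45101 probe sets (the primary run) and over the 3873 detected on 5 to 11 arrays (the limited run). The threshold was 0.05. The methods' analysis of intensities could not be run on calls, so no fold change is given. The script was tested on simulated calls. Symbols came from the platform annotation (34958 probe sets with 1 symbol, 932 with several and 9211 unnamed here), positions and promoter windows from RefSeq (GRCm38.p6), with windows for 33 of the 42 genes. The members and lists were chosen with earlier results of these data known. Named genes were those with an unadjusted exact p under 0.05 in any comparison, those switched between KO and WT within a sex and brain part, those detected on all or no arrays, and up to 4 genes of each other list; genes named beyond these, among them Col6a4, Col9a2, Col17a1, Col27a1 and Col8a1, were chosen after their calls were seen. Alternatives were another cutoff for detection, levels below 0 as missing, ambiguous probe sets (_s_at, _x_at) left out, calls by gene, each array left out, a replicate block and permutation within strata. An array's depth shows only in how many probe sets it detected, and precision is limited by the small number of arrays. P-values measure the spread between these arrays, which may be technical in part. Analyses used scipy 1.17.1, pandas 2.3.3 and numpy 2.4.6 under Python 3.11.15, with figures from matplotlib 3.10.9.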

Additional observations from a re-analysis of the deposited data

Results flagged for a closer look

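Among the 4 KO rest-of-brain arrays, female replicate 2 stood apart from the others by the number of collagen probe sets it detected, 45 against 38, 39 and 38. Chance marks about 1 in 20 groups in this way. The array detected 27534 probe sets in all, within the range of the 16 arrays.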

How the results depend on the processing

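Between the brain parts, the count of collagen probe sets called after adjustment over all probe sets rested on a margin: Col18a1 1418237_s_at and Col6a2 1452250_a_at had an adjusted exact p of 0.0501. The count went from 0 to 1 (Col6a2) without the ambiguous probe sets and to 2 or 3 when any array was left out, and it remained 0 with marginal calls as detected, levels below 0 as missing, calls by gene, the replicate block and permutation within strata. In the limited run the count of 3 ranged from 3 to 5 when 1 array was left out. It was 5 without WT female cerebellum replicate 2, where Col1a2 1446326_at and Col24a1 also passed. That array detected Col24a1, against its split, so leaving the array out can only widen the split. With marginal calls as detected the count was 4 (Col1a2 1446326_at added, adjusted exact p = 0.0437). By gene or without the ambiguous probe sets the count was 2. KO against WT and female against male gave 0 calls under every alternative run for them. The mean number of collagen probe sets in cerebellum minus rest of brain was -0.875 (-1.27 to -0.179 with 1 array left out) and that of KO minus WT -1.12 (-1.96 to -0.679). By gene the latter was 0.125.

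Same-numbered arrays did not deviate together, with r of -0.0181 to 0.0434 between brain parts and -0.00464 to 0.0647 between genotypes, over 11269 probe sets. Each r rests on 2 arrays per group and on calls, whose spread may be technical in part. The values therefore cannot settle whether same-numbered arrays share an animal, and the main tests did not pair them. With the replicate block, 4 collagen probe sets passed the limited run between the brain parts, Col1a2 1446326_at being added at an adjusted exact p of 0.0485, and 0 between KO and WT. Calls cannot show a change in a gene that is detected, or missed, on every array, which holds for 55 of the 82 members.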
